A study of Mus musculus with 24 samples.

Results

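Photoreceptor outer segments are stacks of membrane discs that capture light. Proteins of the disc rim hold the curved edges of the discs, enzymes and a transporter clear the retinal that bleached visual pigment releases, and a matrix between photoreceptors and pigment epithelium surrounds the outer segments and carries retinoids between the cells. Defects in genes of all 3 kinds are known to cause retinal dystrophies.

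Retinal RNA of 9 genes with these roles was compared among 8 inbred mouse strains. The genes were taken by symbol from the table of normalized read counts as disc rim and disc genes (Prph2, Rom1 and Prcd), genes of retinoid handling (Abca4, Rdh8, Rdh12 and Rbp3) and genes of the interphotoreceptor matrix (Impg1 and Impg2). All 9 symbols were found among the 28802 genes of the table, and all 9 were among the 16400 genes tested, whose mean was 0.5 cpm or more. The study measured retinal gene expression alongside vision and refraction in the founder strains of the Collaborative Cross. It comprised 24 libraries of total RNA depleted of ribosomal RNA, 3 from each strain. They were 5 classical strains (C57BL/6J, A/J, 129S1/Svlmj, NZO/HlLtJ and NOD/ShiLtJ) and 3 wild-derived strains (WSB/EiJ, CAST/EiJ and PWK/PhJ). All groups were labelled wild type, retina and postnatal day 28, and no group was treated. Each library counts as a biological replicate in the study's methods, but the labels do not name the animals, so the tests measure the spread between these samples.

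Values are cpm, the reads of a gene as a share of its library's total, scaled to a fixed sum. Depth, found from the step between low values, ran from 57607000 to 78150000 reads (median 68942500). For the 9 genes, the counting error of a library's value ran from 0.330% (Prph2, C57BL/6J replicate 2) to 4.51% (Rdh8, WSB/EiJ replicate 3). This covers counting error only. Strain means are given with the SD over 3 libraries (n = 3), and replicate numbers only name libraries. Differences between strains are on the log2(cpm + 1) scale with the SE of limma's moderated fit, and a difference was called at a Storey q-value under 0.01. This scale understates the differences of genes with low levels. Since whole retinas were measured, the values alone do not separate the number of photoreceptors from the RNA per photoreceptor, and levels relative to 12 rod reference genes (rod scaling) are given as well. This scaling shifts all genes of a library alike. Counts of pairs called under it have no share of all genes beside them, so a higher count says nothing particular about a gene.

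All 12 rod and all 10 cone reference genes passed the limit for testing. Some libraries stood apart. WSB/EiJ replicate 2 had the lowest summed level of the 9 genes (2579.5 cpm, against 3301 and 2988 cpm in replicates 1 and 3) and of the 12 rod reference genes (11277 cpm, against 14048 and 12258 cpm). Lens markers summed to 2095 cpm in 129S1/Svlmj replicate 2 and 2346 cpm in NOD/ShiLtJ replicate 2, where the next library, C57BL/6J replicate 2, had 284 cpm. Xist, an RNA of the inactive X chromosome in females, stood at 906 to 1081 cpm in 4 libraries (129S1/Svlmj, C57BL/6J and CAST/EiJ replicates 3 and PWK/PhJ replicate 2) and at no more than 9.71 cpm in the other 20. The labels do not give the sex.

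Over all strains, limma's F-test called all 9 genes, but it called 15948 of the 16400 genes tested (97.2%), so the count says nothing particular about these genes. The q-values rest on an estimate that 0.0208 of all genes do not differ between strains, which makes the F-test permissive. With a Benjamini-Hochberg adjusted p under 0.05, 13463 genes (82.1%) and 8 of the 9 genes were called. Abca4 was the exception, with an adjusted p of 0.0964 and an unadjusted p of 0.0835 from limma beside a q-value of 0.00201. Comparisons of strain pairs separated the genes better. Over the 9 genes and 28 pairs of strains, 104 comparisons (41.3%) were called, against 30.2% for all genes (138501 of 459200). These q-values rest on an estimate that 0.417 of all comparisons do not differ. With a Benjamini-Hochberg adjusted p under 0.01 from limma, 115621 comparisons of all genes were called. The median difference between the highest and lowest strain was 0.55 (log2) for the 9 genes and 0.43 for all genes tested. A difference above 1 was seen in 1 of the 9 genes, Rdh8, and in 11.6% of all genes tested. The genes tested reach down to a mean of 0.5 cpm, where the log2(cpm + 1) scale understates differences. The 9 genes averaged 20.9 cpm (Rdh8) or more. No share or percentile was taken among genes of similar level. The number of pairs called ran from 1 of 28 for Abca4 to 20 of 28 for Impg2. With each of the 24 libraries left out in turn, 76 of the 104 calls were kept every time and 28 were lost at least once.

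**Figure D1:**
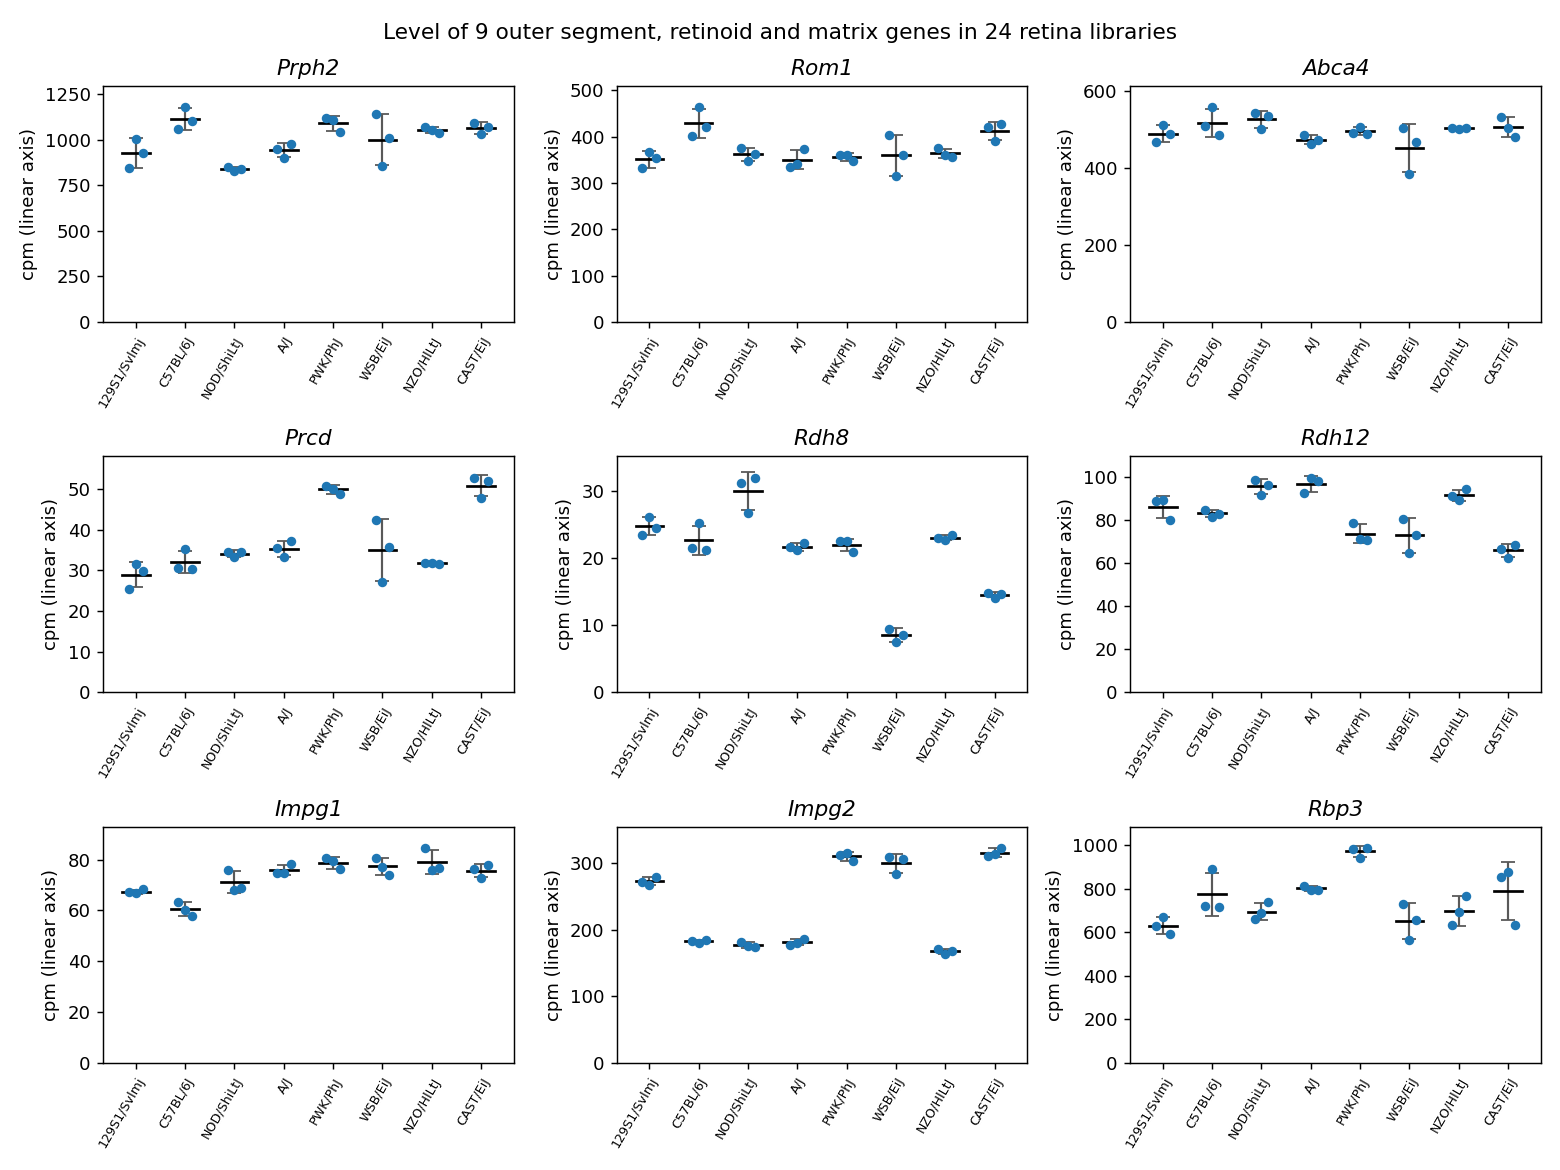
Level of each of the 9 genes in cpm (vertical, linear axes from 0) in the 3 libraries of each of 8 strains (points), with the mean (black line) and the SD over 3 libraries (grey bars). Impg2 falls into 12 libraries at 163 to 186 cpm and 12 at 267 to 323 cpm, and Rdh8 is lowest in the 3 WSB/EiJ libraries, at 7.44 to 9.47 cpm.

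Levels of different genes were compared per kilobase of annotated exon, as means over all libraries. Prph2 was the most abundant with 334 cpm per kb, followed by its partner Rom1 with 246 and Rbp3 with 142 cpm per kb. The other 6 genes lay lower, between 14.9 (Rdh8) and 41.2 cpm per kb (Abca4). The length was that of all annotated exons of a gene together, and the order of Rdh12, Impg2 and Prcd depends on this choice. The value of Abca4 depends on it too, with 12022 bases in all exons and 7263 in the longest transcript.

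Prph2 (ENSMUSG00000023978, chr17:46910459-46924933, plus strand of GRCm38) encodes peripherin 2, a tetraspanin of the disc rim. Its level was 852, 827 and 837 cpm in NOD/ShiLtJ and 846, 1007 and 927 cpm in 129S1/Svlmj. It was 1057, 1178 and 1104 cpm in C57BL/6J and 1117, 1111 and 1044 cpm in PWK/PhJ. The NOD/ShiLtJ libraries were the lowest of the 24, apart from an overlap with 129S1/Svlmj replicate 1. The remaining libraries lay between 855 cpm (WSB/EiJ replicate 2) and 1139 cpm (WSB/EiJ replicate 1), so that WSB/EiJ alone spanned most of the range. In order of log2 means the strains were NOD/ShiLtJ, 129S1/Svlmj, A/J, WSB/EiJ, NZO/HlLtJ, CAST/EiJ, PWK/PhJ and C57BL/6J, and no step between neighbours was called. Mean Prph2 was 1113 ± 61.0 cpm (SD) in C57BL/6J, the highest strain, and 839 ± 12.6 cpm in NOD/ShiLtJ, the lowest. C57BL/6J was 1.33-fold higher than NOD/ShiLtJ in cpm (log2 difference 0.41 ± 0.07 SE, q = 6.02e-05). NOD/ShiLtJ was lower than 5 other strains, all but 129S1/Svlmj and A/J, and 8 of 28 pairs were called. Its difference from WSB/EiJ (-0.24, q = 0.00533) was not called without WSB/EiJ replicate 1 (-0.15, q = 0.0457) or replicate 3 (-0.23), or without any 1 of the NOD/ShiLtJ libraries (-0.26 to -0.23), and 4 of the 8 calls were kept without each library in turn. The number of pairs called was 13 without WSB/EiJ replicate 2, 14 after quantile normalization and 0 for cpm that were not log-transformed. With rod scaling it was 11, and NOD/ShiLtJ was lower than all 7 other strains. Quantile normalization gives every library the same value at the same rank, which makes coarse steps between the most abundant genes. The strain means of Prph2 were then identical in C57BL/6J and A/J (10.11).

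Rom1 (ENSMUSG00000071648, chr19:8927391-8929356, minus strand) encodes a tetraspanin that assembles with peripherin 2 at the rim. Its level was 402, 464 and 421 cpm in C57BL/6J and 421, 389.9 and 427 cpm in CAST/EiJ. In the other 6 strains it ran from 316 to 404 cpm, and WSB/EiJ supplied both ends of that range. The C57BL/6J and CAST/EiJ libraries were high but overlapped with WSB/EiJ. The order was A/J, 129S1/Svlmj, PWK/PhJ, WSB/EiJ, NOD/ShiLtJ, NZO/HlLtJ, CAST/EiJ and C57BL/6J, again with no called step between neighbours. Mean Rom1 was 429 ± 31.6 cpm (SD) in C57BL/6J, the highest strain, and 349.9 ± 20.4 cpm in A/J, the lowest. C57BL/6J was higher than 6 strains, all but CAST/EiJ, and 1.23-fold higher than A/J (0.29 ± 0.07, q = 0.000841). Without C57BL/6J replicate 2 it was not called against PWK/PhJ (0.21), WSB/EiJ (0.20), NOD/ShiLtJ (0.19) or NZO/HlLtJ (0.18). The call against WSB/EiJ was also lost without WSB/EiJ replicate 2 (0.16, q = 0.0221), that against NOD/ShiLtJ without its replicate 2 (0.21), and that against NZO/HlLtJ without its replicate 2 (0.23) or 3 (0.22). CAST/EiJ was higher than 129S1/Svlmj, A/J and PWK/PhJ, but none of these calls was kept without CAST/EiJ replicate 1 (0.22, 0.22 and 0.20) or replicate 3 (0.21, 0.21 and 0.19). The call against 129S1/Svlmj was also lost without its replicate 1 or 3, and that against A/J without its replicate 1 or 2. That against PWK/PhJ was also lost without any 1 PWK/PhJ library or any 1 of several libraries of other strains. Of the 9 calls of Rom1, 2 were kept without each library in turn. With rod scaling none of the CAST/EiJ differences was called, those from 129S1/Svlmj and A/J changed sign, and C57BL/6J was higher than CAST/EiJ as well. The strain order of Rom1 was not that of Prph2: over the 8 strain means Pearson's r between the 2 genes was 0.57, given as a description.

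Prcd (ENSMUSG00000075410, chr11:116653534-116668389, plus strand) encodes a small protein of photoreceptor discs. Its level was 52.9, 47.9 and 52.0 cpm in CAST/EiJ and 50.9, 50.2 and 48.8 cpm in PWK/PhJ. It was 25.5, 31.6 and 29.9 cpm in 129S1/Svlmj and 42.4, 27.1 and 35.8 cpm in WSB/EiJ. The 6 CAST/EiJ and PWK/PhJ libraries lay above the other 18, which reached 42.4 cpm in WSB/EiJ replicate 1. The order was 129S1/Svlmj, NZO/HlLtJ, C57BL/6J, NOD/ShiLtJ, WSB/EiJ, A/J, PWK/PhJ and CAST/EiJ, and the only called step between neighbours was from A/J to PWK/PhJ (0.49 ± 0.10, q = 0.000201). CAST/EiJ and PWK/PhJ were each higher than the other 6 strains, which gives all 12 called pairs, and each was called without each library in turn. With rod scaling these pairs were called too, among 17. Mean Prcd was 50.9 ± 2.65 cpm (SD) in CAST/EiJ, the highest strain, and 29.0 ± 3.13 cpm in 129S1/Svlmj, the lowest. CAST/EiJ was 1.76-fold higher than 129S1/Svlmj (0.80 ± 0.10, q = 4.78e-07). The gene shares 201 exon bases (13.1% of its exon length) with Cygb on the opposite strand, which had a mean of 19.4 cpm, and it is not stated whether reads were counted by strand. The part of Cygb reads in these values was not tested.

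Among the retinoid genes, Rdh8 varied most. Rdh8 (ENSMUSG00000053773, chr9:20818503-20826117, plus strand) encodes a retinol dehydrogenase of the outer segment, which reduces all-trans-retinal after bleaching. Its level was 9.47, 7.44 and 8.54 cpm in WSB/EiJ and 14.8, 14.1 and 14.7 cpm in CAST/EiJ. It was 31.2, 26.7 and 32.0 cpm in NOD/ShiLtJ and 23.5, 26.1 and 24.5 cpm in 129S1/Svlmj. In A/J, PWK/PhJ, C57BL/6J and NZO/HlLtJ it lay above the CAST/EiJ libraries and reached at most 25.2 cpm. The WSB/EiJ libraries were lowest, the CAST/EiJ libraries came next, and neither group overlapped with any other. NOD/ShiLtJ lay at the top, with all its libraries above those of the other 7 strains. In the order WSB/EiJ, CAST/EiJ, A/J, PWK/PhJ, C57BL/6J, NZO/HlLtJ, 129S1/Svlmj and NOD/ShiLtJ, the steps from WSB/EiJ to CAST/EiJ (0.71 ± 0.07, q = 2.33e-08), from CAST/EiJ to A/J (0.55 ± 0.07, q = 1.16e-06) and from 129S1/Svlmj to NOD/ShiLtJ (0.27 ± 0.07, q = 0.00290) were called. Mean Rdh8 was 8.48 ± 1.02 cpm (SD) in WSB/EiJ, 14.5 ± 0.386 cpm in CAST/EiJ and 24.7 ± 1.34 cpm in 129S1/Svlmj, next to the highest strain. NOD/ShiLtJ was 3.53-fold higher than WSB/EiJ in cpm (1.71 ± 0.07, q = 4.47e-15), a difference at percentile 96.2 of all genes tested. WSB/EiJ, CAST/EiJ and NOD/ShiLtJ each differed from all 7 other strains, while A/J, PWK/PhJ, C57BL/6J, NZO/HlLtJ and 129S1/Svlmj had no called difference among themselves. Of the 18 calls, that between NOD/ShiLtJ and 129S1/Svlmj alone was lost without 1 library, namely 129S1/Svlmj replicate 1 (0.23), NOD/ShiLtJ replicate 1 (0.23) or NOD/ShiLtJ replicate 3 (0.22). With rod scaling NOD/ShiLtJ was no longer called against 129S1/Svlmj (0.12 higher, q = 0.0291), and 129S1/Svlmj was higher than A/J, PWK/PhJ, C57BL/6J and NZO/HlLtJ.

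Rdh12 (ENSMUSG00000021123, chr12:79208914-79222665, plus strand), a retinol dehydrogenase of the photoreceptor inner segment, had another order. Its level was 66.6, 62.2 and 68.4 cpm in CAST/EiJ, and 80.5, 64.6 and 73.0 cpm in WSB/EiJ. It was 92.6, 99.5 and 97.9 cpm in A/J and 98.4, 91.6 and 96.3 cpm in NOD/ShiLtJ. The 9 libraries of CAST/EiJ, WSB/EiJ and PWK/PhJ, the wild-derived strains, ran from 62.2 to 80.5 cpm and the other 15 from 80.0 to 99.5 cpm, with an overlap between WSB/EiJ replicate 1 and 129S1/Svlmj replicate 3. The order was CAST/EiJ, WSB/EiJ, PWK/PhJ, C57BL/6J, 129S1/Svlmj, NZO/HlLtJ, NOD/ShiLtJ and A/J, with no called step between neighbours. Mean Rdh12 was 96.7 ± 3.63 cpm (SD) in A/J, the highest strain, and 65.7 ± 3.18 cpm in CAST/EiJ, the lowest. A/J was 1.47-fold higher than CAST/EiJ (0.55 ± 0.06, q = 1.07e-07). Each of A/J, NOD/ShiLtJ, NZO/HlLtJ and 129S1/Svlmj was higher than each of the 3 wild-derived strains. C57BL/6J was higher than CAST/EiJ and WSB/EiJ, lower than NOD/ShiLtJ and A/J, and not called against PWK/PhJ (0.18 higher, q = 0.0138). Of 28 pairs 16 were called, or 24 with rod scaling. The difference between 129S1/Svlmj and WSB/EiJ (0.24, q = 0.00166) was 0.16 and not called without WSB/EiJ replicate 2 (q = 0.0155). That between 129S1/Svlmj and PWK/PhJ (0.22) was 0.20 and not called without replicate 1 or 2 of 129S1/Svlmj or replicate 2 or 3 of PWK/PhJ. The calls of C57BL/6J against WSB/EiJ (0.19), NOD/ShiLtJ (-0.20) and A/J (-0.22) were each lost without any 1 of several libraries. Its difference from WSB/EiJ was 0.11 without WSB/EiJ replicate 2. Of the 16 calls, 11 were kept without each library in turn. NOD/ShiLtJ was high and CAST/EiJ low for both dehydrogenases, and r between the 2 genes over the 8 strain means was 0.69. A/J stood at the top for Rdh12 and next above CAST/EiJ for Rdh8. Its steps to NOD/ShiLtJ for Rdh12 (q = 0.357) and to PWK/PhJ for Rdh8 (q = 0.366) were not called.

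Rbp3 (ENSMUSG00000041534, chr14:33954003-33964216, plus strand) encodes the interphotoreceptor retinoid-binding protein, which photoreceptors secrete into the matrix. Its level was 985, 943 and 988 cpm in PWK/PhJ and 628, 669.9 and 591 cpm in 129S1/Svlmj. It was 853, 879 and 635 cpm in CAST/EiJ and 721, 890.1 and 715 cpm in C57BL/6J. The PWK/PhJ libraries lay above the other 21, of which C57BL/6J replicate 2 was the highest. CAST/EiJ and C57BL/6J each held a library far from its partners. The 4 libraries with high Xist, CAST/EiJ replicate 3 among them, were each the lowest of their strain for Rbp3. Whether the levels of Xist and Rbp3 are related was not tested. PWK/PhJ was higher than 6 strains, all but its neighbour A/J (0.28 ± 0.11, q = 0.0191), and no step was called in the order 129S1/Svlmj, WSB/EiJ, NOD/ShiLtJ, NZO/HlLtJ, C57BL/6J, CAST/EiJ, A/J and PWK/PhJ. Mean Rbp3 was 972 ± 25.1 cpm (SD) in PWK/PhJ, the highest strain, and 629.6 ± 39.4 cpm in 129S1/Svlmj, the lowest. PWK/PhJ was 1.54-fold higher than 129S1/Svlmj (0.63 ± 0.11, q = 2.35e-05). The difference between PWK/PhJ and CAST/EiJ (0.32, q = 0.00965) lost its call without any 1 of 16 libraries and was 0.17 without CAST/EiJ replicate 3 (q = 0.0856). That between PWK/PhJ and C57BL/6J (0.33) was not called without C57BL/6J replicate 1 (0.28) or 3 (0.28) or any 1 PWK/PhJ library (0.32 to 0.36), and 4 of the 7 calls were kept without each library. Of 28 pairs 7 were called, 11 without WSB/EiJ replicate 1, 13 without CAST/EiJ replicate 3 and 11 with rod scaling. After quantile normalization, which for such an abundant gene gives coarse steps between ranks, 2 were called and A/J was the highest strain. The difference between PWK/PhJ and 129S1/Svlmj was then 0.30 and not called.

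Abca4 (ENSMUSG00000028125, chr3:122044443-122180123, plus strand) encodes the transporter that moves retinal conjugates across the disc membrane, and it varied least. Its level was 504, 384 and 467 cpm in WSB/EiJ and 542, 500.0 and 536 cpm in NOD/ShiLtJ. All 24 libraries lay between 384 and 557 cpm. WSB/EiJ replicate 2 was the lowest and WSB/EiJ replicate 1 lay within the NOD/ShiLtJ libraries. Mean Abca4 was 526 ± 22.6 cpm (SD) in NOD/ShiLtJ, the highest strain, and 452 ± 61.5 cpm in WSB/EiJ, the lowest. NOD/ShiLtJ was 1.16-fold higher than WSB/EiJ (0.23 ± 0.07, q = 0.00595), the only pair called, at percentile 13.0 of all genes by its largest difference. Without WSB/EiJ replicate 2, the lowest library, no pair was called, NOD/ShiLtJ was 0.12 above WSB/EiJ, and the widest difference was from A/J to NOD/ShiLtJ (0.15, q = 0.0101). The difference between NOD/ShiLtJ and WSB/EiJ was also not called without NOD/ShiLtJ replicate 1 (0.21) or replicate 3 (0.21), while 6 pairs were called without WSB/EiJ replicate 1 and 2 without C57BL/6J replicate 3. With rod scaling 9 pairs were called, and CAST/EiJ was the lowest strain and 129S1/Svlmj the highest. The order was WSB/EiJ, A/J, 129S1/Svlmj, PWK/PhJ, NZO/HlLtJ, CAST/EiJ, C57BL/6J and NOD/ShiLtJ, with no called step.

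The matrix genes differed from each other. Impg2 (ENSMUSG00000035270, chr16:56204313-56273756, plus strand) encodes a membrane-bound proteoglycan of the interphotoreceptor matrix. Its level was 311, 314 and 323 cpm in CAST/EiJ, and 312, 315 and 303 cpm in PWK/PhJ. It was 309.6, 283 and 306 cpm in WSB/EiJ and 272, 267 and 279 cpm in 129S1/Svlmj. These 12 libraries lay at 267 to 323 cpm. The level was 182, 179 and 185 cpm in C57BL/6J and 176, 180.4 and 186 cpm in A/J. It was 182, 175 and 174 cpm in NOD/ShiLtJ and 171, 163 and 167 cpm in NZO/HlLtJ. These 12 libraries lay at 163 to 186 cpm, and nothing lay between 186 and 267 cpm. All 16 pairs of a higher with a lower strain were called, with q-values of at most 1.39e-11, and all stayed called without each library in turn, beside 4 of the 12 pairs within the higher or the lower strains and 30.2% of pairs for all genes. The step between the groups, from C57BL/6J to 129S1/Svlmj, was 0.58 ± 0.04 (log2). The only other called step was from 129S1/Svlmj to WSB/EiJ (0.14 ± 0.04, q = 0.00353; not called without 129S1/Svlmj replicate 2, 0.12, or WSB/EiJ replicate 1, 0.11, or 3, 0.12), in the order NZO/HlLtJ, NOD/ShiLtJ, A/J, C57BL/6J, 129S1/Svlmj, WSB/EiJ, PWK/PhJ and CAST/EiJ. Mean Impg2 was 316 ± 6.28 cpm (SD) in CAST/EiJ, the highest strain, and 167 ± 3.91 cpm in NZO/HlLtJ, the lowest. CAST/EiJ was 1.89-fold higher than NZO/HlLtJ (0.91 ± 0.04, q = 3.10e-15), at percentile 86.1 of all genes tested. The higher strains were the 3 wild-derived strains and 129S1/Svlmj, a split that the values themselves showed and that was not set beforehand. The counts of pairs called across and within it restate that split and are no test of it. With rod scaling all 16 pairs across the split were called, but 129S1/Svlmj was not called against PWK/PhJ, WSB/EiJ or CAST/EiJ.

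Impg1 (ENSMUSG00000032343, chr9:80313330-80465481, minus strand), the secreted proteoglycan of the pair, did not share this pattern (r = 0.28 with Impg2 over the 8 strain means). Its level was 63.5, 60.3 and 57.8 cpm in C57BL/6J and 67.3, 66.7 and 68.3 cpm in 129S1/Svlmj. In the other 6 strains it ran from 68.2 to 84.6 cpm. The C57BL/6J libraries were the lowest of all, and those of 129S1/Svlmj came next, with replicate 3 at the edge of NOD/ShiLtJ. C57BL/6J was lower than all 7 other strains, and the step to 129S1/Svlmj was the only called one (0.16 ± 0.05, q = 0.00801). This step lost its call without any 1 of 8 libraries, with differences of 0.12 (C57BL/6J replicate 3) to 0.16. 129S1/Svlmj was lower than A/J, PWK/PhJ, WSB/EiJ, NZO/HlLtJ and CAST/EiJ. The calls against A/J (-0.17) and CAST/EiJ (-0.16) were lost without its replicate 1 (-0.17 and -0.16) or 2 (-0.16 and -0.16). The call against A/J was also lost without A/J replicate 3 (-0.15). That against CAST/EiJ was also lost without 129S1/Svlmj replicate 3 (-0.17) or CAST/EiJ replicate 1 (-0.16) or 3 (-0.14). That against WSB/EiJ (-0.19) was lost without WSB/EiJ replicate 1 (-0.16). Of the 13 calls of Impg1, 8 were kept without each library in turn, and with rod scaling 129S1/Svlmj was called lower than A/J alone, and the difference from CAST/EiJ changed sign. The order went on with NOD/ShiLtJ, CAST/EiJ, A/J, WSB/EiJ, PWK/PhJ and NZO/HlLtJ. Mean Impg1 was 79.1 ± 4.79 cpm (SD) in NZO/HlLtJ, the highest strain, and 60.5 ± 2.86 cpm in C57BL/6J, the lowest. NZO/HlLtJ was 1.31-fold higher than C57BL/6J (0.38 ± 0.05, q = 9.50e-07), while for Impg2 the same NZO/HlLtJ libraries were the lowest.

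Each strain was also set against the mean of the other 7, with q-values over all genes for each strain and calls counted in either direction. These contrasts share libraries and are not compared with each other. Each strain had its own q-values, so the t that limma needed for a call differed between strains. Prph2 in PWK/PhJ was called at t = 2.58 (q = 0.00952), but Prcd in NZO/HlLtJ was not called at t = -2.87 (q = 0.0135). In C57BL/6J 5 of the 9 genes were called, against 22.6% of all genes: Prph2 (0.18), Rom1 (0.23) and Rdh8 (0.21) were higher, Impg1 (-0.30) and Impg2 (-0.38) lower. Without C57BL/6J replicate 2 this count was 2. In 129S1/Svlmj 5 were called, against 27.5%: Rdh8 (0.35) and Impg2 (0.28) were higher, Prcd (-0.37), Impg1 (-0.13, but 0.01 after scaling to rod genes) and Rbp3 (-0.27) lower, and 3 were called without its replicate 1 or replicate 3. In NOD/ShiLtJ 4 were called, against 24.0%: Rdh8 (0.66) and Rdh12 (0.24) were higher, Prph2 (-0.29) and Impg2 (-0.43) lower. In A/J 2 were called, against 27.7%: Rdh12 was higher (0.26) and Impg2 lower (-0.39), and 5 were called after scaling to rod genes and 4 after quantile normalization. NZO/HlLtJ had 4 calls, against 25.9%: Rdh8 (0.24), Rdh12 (0.17) and Impg1 (0.13) were higher and Impg2 lower (-0.52), and 2 were called without its replicate 1. The calls of Rdh12 and Impg1 in NZO/HlLtJ and of Rbp3 in 129S1/Svlmj were lost after scaling to rod genes. Impg2 was called in every strain and Rdh8 in every strain but A/J. The low Rdh8 of WSB/EiJ and CAST/EiJ lowers the mean of the other strains. By pairs, Rdh8 in C57BL/6J, 129S1/Svlmj, NZO/HlLtJ and PWK/PhJ was called higher than WSB/EiJ and CAST/EiJ alone, and lower than NOD/ShiLtJ.

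Among the wild-derived strains, PWK/PhJ had 7 calls, against 49.4% of all genes. Prph2 (0.15), Prcd (0.51), Rdh8 (0.17), Impg1 (0.13), Impg2 (0.49) and Rbp3 (0.44) were higher and Rdh12 was lower (-0.19), with 4 calls without its replicate 1 or replicate 2. Prph2 and Rbp3 in PWK/PhJ lost their calls after quantile normalization, and Impg1 lost its call after scaling to rod genes. CAST/EiJ had 5 calls, against 49.4%, which is near the background. Rom1 (0.17, but -0.00 after scaling to rod genes), Prcd (0.54) and Impg2 (0.52) were higher and Rdh8 (-0.48) and Rdh12 (-0.37) lower there. WSB/EiJ had 5 calls, against 34.5%: Impg2 was higher (0.43), and Abca4 (-0.16), Rdh8 (-1.30), Rdh12 (-0.21) and Rbp3 (-0.23, but 0.03 after quantile normalization) were lower. Without WSB/EiJ replicate 2 the calls were Rdh8 (-1.22) and Impg2 (0.47) alone, and 3 genes were called without WSB/EiJ replicate 3, without replicate 1 of NOD/ShiLtJ, PWK/PhJ or CAST/EiJ, without replicate 2 of PWK/PhJ or NZO/HlLtJ, or without A/J replicate 3.

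The mean log2 level of 12 rod reference genes was not equal among strains. Of their strain pairs 35.7% were called, against 30.2% for all genes. The extreme strains differed between these genes, with NOD/ShiLtJ highest for Sag and lowest for Pde6a. In C57BL/6J the level of Sag was 2.41-fold lower than in NOD/ShiLtJ and that of Gngt1 1.85-fold lower than in CAST/EiJ. Scaled values are thus levels relative to the mean of 12 genes that themselves differed, and not levels per rod. Counts of pairs called with rod scaling are given without the share of all genes under that scaling. Scaling each library to it moved the median of all genes by 0.12 in 129S1/Svlmj, 0.13 in A/J, -0.11 in NZO/HlLtJ and -0.15 in CAST/EiJ. Relative to this mean, Impg2 had a difference of 0.99 between its highest and lowest strain, now PWK/PhJ and NZO/HlLtJ, with 20 of 28 pairs called. Rdh8 had 1.64 between NOD/ShiLtJ and WSB/EiJ, with 21 pairs called, and Rdh12 had 0.84 between A/J and CAST/EiJ. Prcd had 0.74 between PWK/PhJ and NZO/HlLtJ, while CAST/EiJ and 129S1/Svlmj, its extremes on the deposited scale, were 0.52 apart. Against the mean of the other strains, Rom1 in CAST/EiJ moved from 0.17 to -0.00 and Impg1 in 129S1/Svlmj from -0.13 to 0.01, both no longer called, so these directions did not hold under this scaling. Abca4 (-0.11) and Rbp3 (-0.18) in WSB/EiJ, Rbp3 in 129S1/Svlmj (-0.14), Rdh12 (0.05) and Impg1 (0.01) in NZO/HlLtJ and Impg1 in PWK/PhJ (0.12) also lost their calls. After quantile normalization Rbp3 in WSB/EiJ moved from -0.23 to 0.03 and Rbp3 in PWK/PhJ from 0.44 to 0.13 and Prph2 in PWK/PhJ from 0.15 to 0.01, also no longer called, and Prph2 in CAST/EiJ, at 0.11 and not called on the deposited scale, was -0.33 and called.

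**Figure D2:**
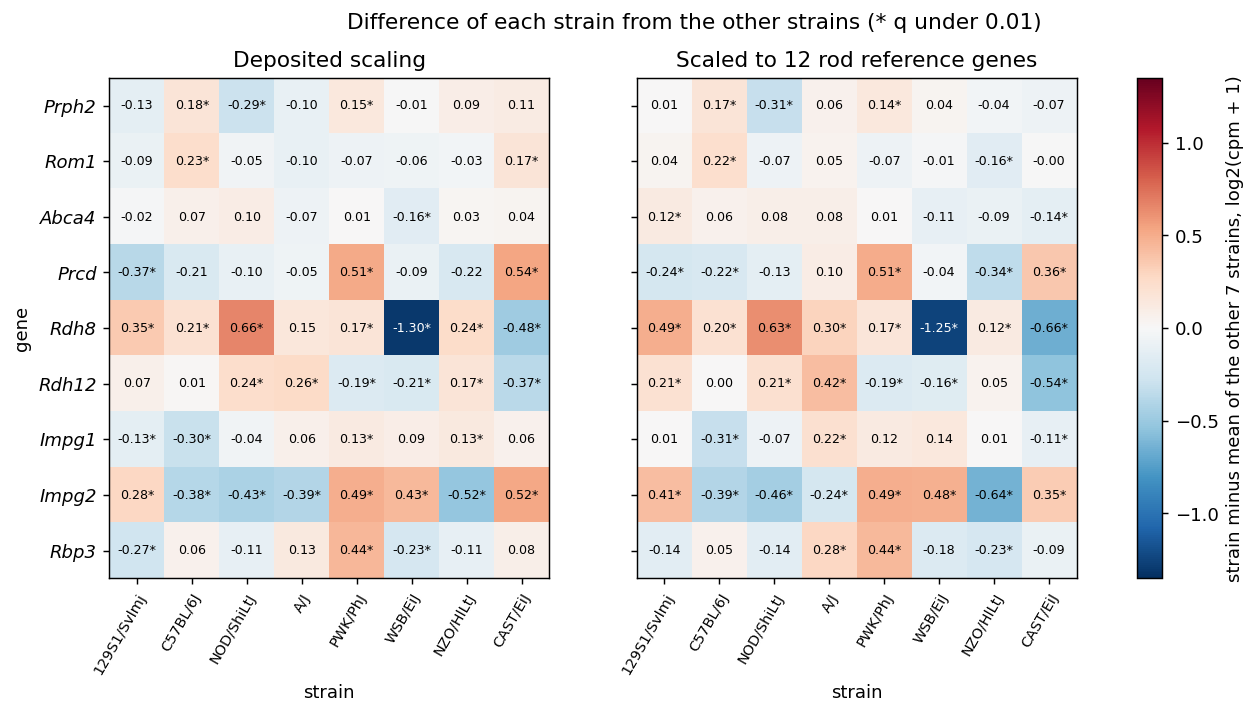
Difference of each strain (columns) from the mean of the other 7 strains for the 9 genes (vertical), in log2(cpm + 1), on the deposited scale (left) and after scaling to 12 rod reference genes (right), with an asterisk where q was under 0.01. Impg2 keeps its signs in both panels, Rdh8 in WSB/EiJ is -1.30 and -1.25, and Rom1 in CAST/EiJ loses its call.

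Summed cpm of the 12 rod reference genes were 12334, 13139.9 and 12161 in 129S1/Svlmj, 12095, 11896 and 12368 in A/J and 14048, 11277 and 12258 in WSB/EiJ. They were 14356, 13981 and 14611 in C57BL/6J, 14514, 13052 and 13766 in NOD/ShiLtJ and 14292, 13752 and 13234 in PWK/PhJ. They were 14165, 13635 and 13784 in NZO/HlLtJ and 15168, 13875 and 14965 in CAST/EiJ. The sums of A/J and 129S1/Svlmj were among the lowest and those of CAST/EiJ among the highest, and WSB/EiJ spread widely. Of 8 pigment epithelium markers 7 were tested, and Best1, the remaining one, had a mean of 0.0396 cpm. Summed cpm of the 8 markers were 90.3, 54.0 and 57.7 in WSB/EiJ, 22.9, 51.2 and 79.4 in A/J and 48.2, 53.7 and 45.5 in 129S1/Svlmj. They were 35.8, 19.6 and 36.9 in C57BL/6J, 36.6, 24.4 and 25.3 in NOD/ShiLtJ and 14.2, 21.4 and 11.0 in PWK/PhJ. They were 16.2, 22.3 and 14.6 in NZO/HlLtJ and 17.4, 14.1 and 16.2 in CAST/EiJ. The highest sums were in WSB/EiJ and A/J replicate 3, and the most abundant marker was Rgr, with a mean of 12.3 cpm. The part of these marker levels in the differences of the 9 genes was not tested.

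Other genes with the same roles were counted for comparison. For 9 other outer segment and disc genes, 96 comparisons with pairs of strains (38.1%) were called, against 30.2% for all genes, with a median difference between highest and lowest strain of 0.46. The largest were in Fscn2, an actin-bundling protein (2.37-fold, C57BL/6J over NZO/HlLtJ), Cdhr1, a cadherin of nascent discs (1.65-fold, NOD/ShiLtJ over C57BL/6J), Cngb1, a channel subunit (191 cpm in WSB/EiJ and 127 cpm in 129S1/Svlmj), and Atp8a2, a lipid flippase (1.40-fold, PWK/PhJ over 129S1/Svlmj). Of 4 other photoreceptor dehydrogenases, 35 of 112 comparisons (31.2%) were called, with a median difference of 0.63. Dhrs3 was 1.72-fold higher in 129S1/Svlmj than in CAST/EiJ, Rdh11 1.71-fold higher in C57BL/6J than in PWK/PhJ, and Rdh13 1.53-fold higher in PWK/PhJ than in CAST/EiJ, whereas no pair was called for Rdh14 (7.49 cpm in A/J and 6.82 cpm in C57BL/6J).

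The 8 retinoid genes of pigment epithelium and Müller glia had 59 of 224 comparisons called (26.3%), near the background, with a median difference of 0.96. Rgr (26.3 against 5.65 cpm), Lrat (4.28 against 0.923 cpm) and Rdh5 (3.57 cpm, against 1.16 cpm in CAST/EiJ) were highest in WSB/EiJ, and Rpe65, the isomerase, was highest in A/J (4.67 cpm). Rgr, Lrat and Rpe65 were lowest in PWK/PhJ. These 4 genes are also pigment epithelium markers, so both lists share them. Of 8 other matrix genes 7 were tested, Has2 being too low (mean 0.0661 cpm), and 73 of 196 comparisons (37.2%) were called, with a median difference of 0.47. Vcan, a large proteoglycan, was 6.64-fold higher in C57BL/6J (13.6 cpm) than in PWK/PhJ (2.04 cpm), Cd44, a hyaluronan receptor, 3.77-fold higher in PWK/PhJ than in WSB/EiJ, and Timp3 1.71-fold higher in WSB/EiJ than in CAST/EiJ.

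The 9 genes did not vary as a unit. Pearson's r between strain means, over 36 pairs of genes and 8 strains that share libraries, ran from -0.86 (Rdh12 with Impg2) to 0.74 (Prcd with Rbp3), and Rdh8 with Abca4 had 0.73. Among 9273 genes whose mean reached 5 cpm, those most alike to Impg2 were Mmut (0.97), Dok6 (0.97) and Epha6 (0.96). For Rdh8 they were Zmym2 (0.98), Ssb (0.98) and Ndufa13 (0.97), whose own fold between highest and lowest strain was at most 1.16. For Prcd they were Prdm1 (0.98), Cacna1f (0.98) and Cfap410 (0.98). For Rdh12 they were Specc1l (0.99), Akap13 (0.97) and Yeats2 (0.97), and for Rbp3 Mgat2 (0.98), Acsl1 (0.97) and Mrps7 (0.96). For Prph2 they were Leng8 (0.96), Fam234b (0.96) and Mapk1ip1l (0.92), for Rom1 Ttc5, Cyb5r4 and Gm26782 (each 0.94), for Abca4 Frmd4b (0.97), Exosc10 (0.96) and Atp6v1h (0.95), and for Impg1 Fam120c (0.95), Hnrnpc (0.95) and Gigyf1 (0.92). With 8 points and 9273 genes compared, a high r alone says little about any of them. Of 25 genes within 1 Mb of Prcd, 5 had r above 0.8 with it, namely Unk, Prpsap1, Mfsd11, St6galnac2 and Recql5, against 5.23% of all 9273 genes. For Rdh12 2 of 11 such neighbours did (Pigh and Actn1), against 4.17% of all genes, and for Rdh8 1 of 26 (Slc44a2), against 2.70%. None did of 29 for Prph2, 28 for Rom1, 11 for Abca4, 10 for Rbp3, 8 for Impg2 and 5 for Impg1, where 0.302% (Impg1) to 2.87% (Rbp3) of all genes did.

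Promoter sequences of all 9 genes were matched by symbol in RefSeq on GRCm38.p6. The 250 bases before the RefSeq gene start, which for Rdh8 lies before the start given above, are printed for Impg2 and Rdh8, the genes with the widest strain differences, and for Rbp3, which alone among the 9 held both motifs searched. They are reference sequence, lie at chr16:56204063-56204312, chr9:20818244-20818493 and chr14:33953753-33954002, all on the plus strand, and hold no annotated exon base.
Impg2: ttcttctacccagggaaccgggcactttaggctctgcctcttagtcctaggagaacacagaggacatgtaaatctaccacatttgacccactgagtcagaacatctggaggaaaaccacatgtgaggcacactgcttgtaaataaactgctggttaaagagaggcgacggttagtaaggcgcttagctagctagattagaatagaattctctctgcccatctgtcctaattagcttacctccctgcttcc
Rdh8: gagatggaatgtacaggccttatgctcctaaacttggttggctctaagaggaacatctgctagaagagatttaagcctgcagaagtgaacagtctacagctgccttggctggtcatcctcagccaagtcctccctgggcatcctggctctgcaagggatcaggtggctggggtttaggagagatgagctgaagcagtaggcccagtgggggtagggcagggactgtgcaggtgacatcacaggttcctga
Rbp3: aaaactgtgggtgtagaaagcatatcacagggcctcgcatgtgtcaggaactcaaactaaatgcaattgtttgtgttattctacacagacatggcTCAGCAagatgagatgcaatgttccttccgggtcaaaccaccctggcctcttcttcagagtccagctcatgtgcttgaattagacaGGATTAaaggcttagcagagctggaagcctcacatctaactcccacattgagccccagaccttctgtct
Capitals mark TAATCC, the core letters of sites of CRX-type homeodomain factors, and TGCTGA, letters of NRL-type sites, each searched on both strands. In Rbp3 both lie as their reverse complements, TCAGCA at -155 and GGATTA at -69 from the start. TAATCC is in 6.25% of 32851 promoters of this length and, of the 9 genes, in Abca4 and Rbp3. TGCTGA is in 16.1% of them and in Rdh12 and Rbp3. Neither is in the windows of Impg2 and Rdh8. The sequences of the other strains were not analysed here.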

How the data were processed

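RNA of 24 retina samples was sequenced after ribosomal RNA depletion with a stranded kit. Reads of every strain were aligned by the authors to GRCm38/mm10 with STAR, after trimming, and counted per gene in Partek with its E/M model (no versions given). In the deposited table the unit is cpm, which the authors obtained from counts divided by each library's total, and 0.0001 was added. The listed cpm sum to 332469 to 366567 per library, and why they stay below the fixed sum was not worked out. Whether counting used strand is not stated. The methods name RefSeq as annotation, while the identifiers are of Ensembl type.

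The step of 1 read gave the depths. Of low values, 86.9% to 89.3% were whole reads (tolerance 0.02), so no count test was used. A value of 3 reads is 0.0384 to 0.0521 cpm. Replicates correlated at r of 0.989 to 0.998, and no libraries were identical. Log2(cpm + 1) of the 16400 genes whose mean reached 0.5 cpm was fitted by strain with limma 3.58.1 in R 4.3.3 (eBayes with trend, two-sided), giving an F-test, 28 pairs with q-values over all genes and pairs together, and each strain against the mean of the other 7. Storey q-values under 0.01 were called. Exon lengths and coordinates come from GENCODE M21. Figures used matplotlib 3.10.9 in Python 3.11.15. The fit was also run on simulated data in which few genes differed, and those in a single strain. In these data most genes were called, so that run does not test the q-values given here.

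Named genes are the 9 members, for each the 3 genes with the highest r of strain means, and of every other list up to 4 genes with the largest difference between strains, the most abundant marker and genes that are too low. Some genes that this rule covers are left out. Neighbours within 1 Mb were named once their values were known. The members and the 12 other lists were chosen with earlier results of these data known. Alternatives were a pseudocount of 0.1, no filter or a limit of 5 cpm on the mean, median-ratio, quantile and rod scaling, untransformed cpm, ordinary analysis of variance, eBayes without trend, a Benjamini-Hochberg adjusted p or a q-value under 0.05, and leaving out each library or strain. Leaving out the 2 libraries highest for lens markers and the 4 highest for Xist was added after the data were seen. Vision and refraction values of the study were not used.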

Additional observations from a re-analysis of the deposited data

How the results depend on the processing

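The F-test called all 9 genes under each alternative but 3, where it called 8 (no filter, untransformed cpm and the Benjamini-Hochberg adjusted p), with 14438 to 16144 genes called when a strain was left out and 9218 when the limit on the mean was 5 cpm, since fewer genes then entered. The number of the 9 genes called against the other strains moved as follows. In WSB/EiJ it was 3 without a filter, with rod scaling, with untransformed cpm, with ordinary analysis of variance and with eBayes without trend. In 129S1/Svlmj it was 3 and in PWK/PhJ 4 both after quantile normalization and without the 4 libraries highest for Xist. In A/J it was 4 after quantile normalization and 5 with rod scaling, and in C57BL/6J it was 3 with untransformed cpm. The cause was not tested. Without each library in turn the counts ran from 3 to 6 in 129S1/Svlmj, 2 to 6 in C57BL/6J, 4 to 4 in NOD/ShiLtJ, 2 to 3 in A/J, 4 to 7 in PWK/PhJ, 2 to 6 in WSB/EiJ, 2 to 5 in NZO/HlLtJ and 4 to 5 in CAST/EiJ. They ran from 95 to 122 for called pairs of the 9 genes, 15541 to 16361 for genes by F-test and 9 to 9 for the 9 genes by F-test.

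For each gene the pair of strains that was highest and lowest on the deposited scale was followed, whether or not it stayed so. Over 37 alternatives, this difference kept its direction and its call for Rom1, Prcd, Rdh8, Rdh12, Impg1 and Impg2. It lost the call under 7 for Abca4, 1 for Prph2 (untransformed cpm) and 1 for Rbp3 (quantile normalization), and no direction turned. These pairs were picked as the extremes in these same data. Leaving out a library of another strain leaves their difference unchanged. That directions held was thus largely set by the choice of pairs and alternatives. The pair was no longer the extreme one with rod scaling for Rom1, Abca4, Prcd, Impg1, Impg2 and Rbp3, after quantile normalization for Prph2, Rom1 and Rbp3, and with median-ratio scaling for Abca4 and Impg1. Without each library the difference ran from 0.89 to 0.93 for Impg2 and from 1.63 to 1.79 for Rdh8. Where a strain was left with 2 libraries, the fit assumed that they vary like the others. No paired analysis was possible because the labels give library codes only, and nothing in them ties a library of one strain to a library of another. The study's methods name a randomized complete block design for pooling the libraries, but the labels do not give the blocks. All strains were aligned to a single reference genome, and reads were not realigned to the genomes of the other strains. Depth does not limit these 9 genes, the lowest value being 7.44 cpm.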

Other observations

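Markers of other retinal cells varied among the strains as well. For 10 cone genes 164 of 280 comparisons with pairs of strains (58.6%) were called, against 30.2% for all genes, and for 8 bipolar markers 138 of 224 (61.6%). Rlbp1 is in both the Müller glia list and the list of retinoid genes. Pde6c was 3.93-fold higher in PWK/PhJ (41.2 cpm) than in NOD/ShiLtJ (10.5 cpm), Pde6h 3.28-fold higher in C57BL/6J than in WSB/EiJ, Arr3 2.67-fold higher in PWK/PhJ than in NZO/HlLtJ and Cngb3 2.66-fold higher in PWK/PhJ than in A/J. The most abundant cone gene was Opn1sw, with a mean of 109 cpm. Of the bipolar markers, Prkca was 3.29-fold higher in WSB/EiJ than in A/J, Cabp5 2.78-fold higher in PWK/PhJ than in C57BL/6J, Pcp2 2.24-fold higher in NOD/ShiLtJ than in NZO/HlLtJ and Trpm1, the most abundant (mean 189 cpm), 1.85-fold higher in WSB/EiJ than in PWK/PhJ. Of the 12 rod genes 120 of 336 comparisons (35.7%) were called, and Sag, rod arrestin, was 2.41-fold higher in NOD/ShiLtJ than in C57BL/6J, Gngt1 1.85-fold and Pde6a 1.65-fold higher in CAST/EiJ than in C57BL/6J and NOD/ShiLtJ, and Nr2e3 1.59-fold higher in NOD/ShiLtJ than in 129S1/Svlmj.

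Müller glia markers had 76 of 196 comparisons called (38.8%), with Glul the most abundant (mean 609 cpm, 1.43-fold higher in NOD/ShiLtJ than in CAST/EiJ). Vim (2.05-fold) and Apoe (1.71-fold) were also highest in NOD/ShiLtJ and lowest in CAST/EiJ, and Dkk3 was 1.63-fold higher in PWK/PhJ than in WSB/EiJ. Ganglion and amacrine markers had 57 of 224 called (25.4%). Nefl, the most abundant (mean 126 cpm), was 1.79-fold higher in C57BL/6J than in CAST/EiJ, Sncg 1.43-fold higher in NOD/ShiLtJ than in CAST/EiJ, Gad1 1.33-fold higher in WSB/EiJ than in NZO/HlLtJ and Rbpms 1.32-fold higher in A/J than in CAST/EiJ. Of the pigment epithelium markers, with 78 of 196 called (39.8%), Ttr was 5.28-fold higher in WSB/EiJ than in PWK/PhJ, Pmel 14.1-fold higher in NOD/ShiLtJ than in CAST/EiJ (0.445 cpm) and Slc6a20a 7.42-fold higher in 129S1/Svlmj than in NZO/HlLtJ.

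For 12 lens markers limma called 0 of 336 comparisons, 9 of them having an unadjusted p under 0.05, although Cryaa (mean 74.3 cpm), Cryba1, Crybb2 and Crygs were over 45-fold apart between 129S1/Svlmj and A/J, with 129S1/Svlmj replicate 2 far above its partners. Of 6 blood markers 4 were tested, with 42 of 112 comparisons called (37.5%). Hba-a2 was 12.6-fold higher in 129S1/Svlmj than in WSB/EiJ, and Hba-a1, Hbb-bt and Hbb-bs, the most abundant (mean 9.90 cpm), were highest in NOD/ShiLtJ.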
